A study of Mus musculus with 6 samples.

Results

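ATP-binding cassette (ABC) transporters are membrane proteins that spend ATP to move lipids, peptides, conjugates and drugs across membranes, and this account follows 35 genes of subfamilies A, B, C, D and G among the 18193 genes measured on arrays of mouse small cell lung tumours. The members were every gene of a given list of family symbols to which at least 1 of 69 probe sets was paired and to no other gene, Abca3 having been left out as an alveolar marker, and the brightest probe set by its mean over 6 arrays stood for each gene. All 35 were measured, 20 of them by more than 1 probe set. The tumours grew in mice of mixed C57BL/6;129Sv/J background whose Rb, p53 and p130 genes are deleted by Cre recombinase delivered in an adenovirus, and they were harvested 6 to 7 months after infection without treatment. Sorting by the surface proteins CD24, CD44 and EpCAM split each dissociated tumour into the fractions labelled TPC, for tumour-propagating cells, and non-TPC. There were 3 arrays of each fraction, from the mice numbered 1127, 920 and 0107, and both fractions come from mice of the same genotype. Whether every sorted cell carries the deletions was not tested. The sources used here do not give the promoter that drives Cre, the age and sex of the mice or the sorting gates, and no array of normal lung was analysed here.

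Subfamily A and G proteins mostly move sterols and phospholipids, several B and C proteins pump drugs and their conjugates out of cells, D proteins bring fatty acids into peroxisomes, and a few C proteins do not transport but gate potassium channels. The efflux pumps are known for making tumour cells resistant to chemotherapy, and Abcg2 and the P-glycoproteins have been used to find dye-excluding stem-like cells in several tissues. In the lung, P-glycoprotein and Abcg2 are also known from the endothelium of blood vessels, and Abca1 and Abcg1 from macrophages that clear surfactant lipid.

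Values are RMA signals on a log2 scale, on which arrays had medians of 6.00 to 6.04, first quartiles of 4.52 to 4.65 and lowest values of 2.70 to 2.79. There are no detection calls and no true zero, so a value near the bottom of that range cannot be told from background, and levels of different genes are not compared. Differences are TPC minus non-TPC. Of the 35 members, 13 had a mean above the median of all genes, 6.91, and 11 lay below the first quartile of all genes, 5.21. Tumour identity was checked on 6 measured neuroendocrine markers (Insm1, Chga, Syp, Uchl1, Ncam1 and Scg2), whose summed signal was 13.30 to 13.77 in TPCs and 12.97 to 13.39 in non-TPCs on the log2 scale.

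None of the 35 ABC transporter genes passed the test between TPCs and non-TPCs. The drug efflux pumps Abcg2, Abcb1b and Abcb1a were lower in the TPCs of every mouse, without overlap between the fractions. So were 5 members that are not pumps, and 5.91% of all genes. In limma, 0 members had an adjusted p under 0.05, where 11 of all genes did (0.0605%), all of them lower in TPCs. At an unadjusted p under 0.05 there were 4 members lower in TPCs (Abcg2, Abcb1b, Abcb1a and Abcd2; 11.4% of the 35, against 4.35% of all genes) and 0 higher (2.12% of all genes). With the mouse as a replicate block 0 members passed, against 13 of all genes (0.0715%), and 6 members were lower at an unadjusted p under 0.05 (17.1%, against 6.23% of all genes in that fit). The fits rest on 3 mice. Without the block, p-values set each difference against the spread between animals within a fraction. With the block, they set it against the spread of the within-mouse differences. In both fits limma moderated the spread of each gene with that of all genes.

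Within the mice, 12 members were lower in TPCs of all 3 (34.3%, against 13.8% of all genes), 6 were higher in all 3 (17.1%, against 19.7%) and 17 went both ways. All TPC arrays lay below all non-TPC arrays for 8 members (22.9%, against 5.91% of all genes) and above them for 2, Abca8b and Abcg8 (5.71%, against 6.71%). The 8 were the pumps Abcg2, Abcb1b and Abcb1a and the other members Abca1, Abca8a, Abcc9, Abcd2 and Abcd3. A mean difference of -1 or less was seen for 4 members, Abcg2, Abca8a, Abcb1b and Abca9 (11.4%, against 2.74% of all genes), and a difference of 1 or more for 0 (0.22% of all genes). The median difference was -0.02 over the members and 0.04 over all genes. The members thus had a centre close to that of all genes, with a few genes far to the lower side.

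**Figure D1:**
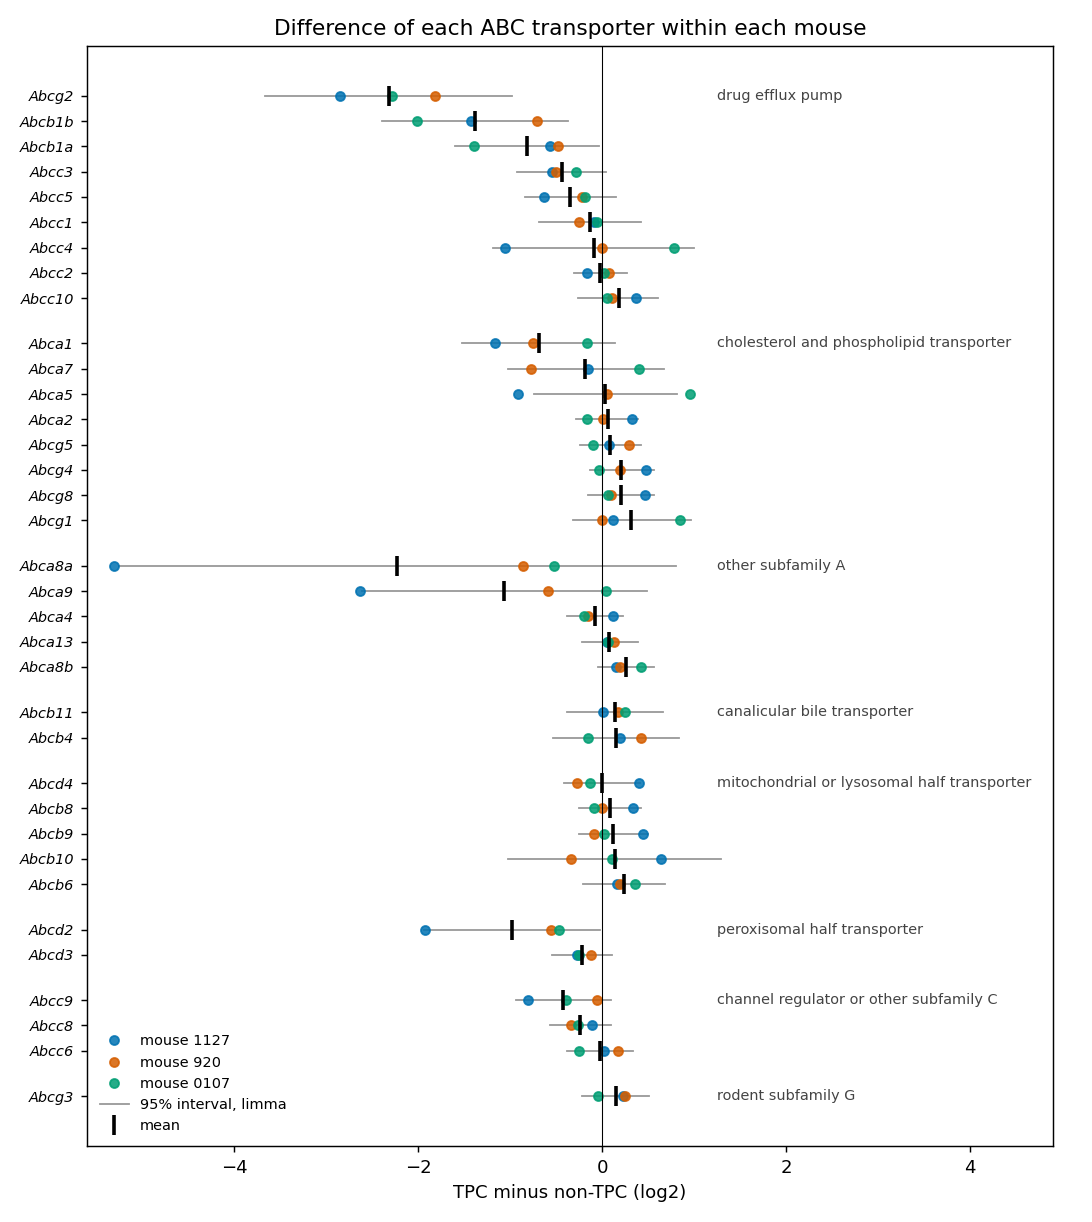
Difference between TPC and non-TPC for each of the 35 ABC transporter genes (log2), grouped by role, with 1 point per mouse, a bar at the mean and a line for the 95% interval of the limma fit. Of the 35 genes 12 had all 3 mice to the left of 0, among them Abcg2, Abcb1b and Abcb1a. The widest intervals belonged to Abca8a and Abca9, whose points for mouse 1127 stood at -5.30 and -2.63.

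Among the 9 genes counted as drug efflux pumps (Abcb1a, Abcb1b, Abcg2, Abcc1, Abcc2, Abcc3, Abcc4, Abcc5 and Abcc10), 8 had a mean difference below 0 and 6 were lower in TPCs of all 3 mice. Among the other 26 transporters these counts were 11 and 6, and of all genes 41.9% were below 0 and 13.8% lower in all 3 mice. The median difference was -0.35 for the pumps and 0.07 for the other members, and within mice 1127, 920 and 0107 it was -0.57, -0.25 and -0.19 for the pumps and 0.10, 0.00 and -0.06 for the others. The pump count of 6 rests on the brightest probe sets. In mice 1127, 920 and 0107 the second-brightest probe set of Abcc5 differed by 0.21, -0.21 and -0.16. That of Abcc1 differed by -0.17, 0.08 and -0.10, and that of Abcb1b by 0.34, 0.00 and -0.26. The pump median also rested on single probe sets and on which genes count as pumps. The value of -0.35 is that of the brightest of 10 Abcc5 probe sets, and the pump median was -0.10 with the mean of all probe sets of each gene and -0.21 without mouse 1127. It was -1.38 for Abcb1a, Abcb1b and Abcg2 alone, -0.11 for the remaining 6 pumps, and -0.09 when Abcb4, Abcb11, Abcc6 and Abca2 were counted as pumps too. No test of pumps against the rest was made.

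**Figure D2:**
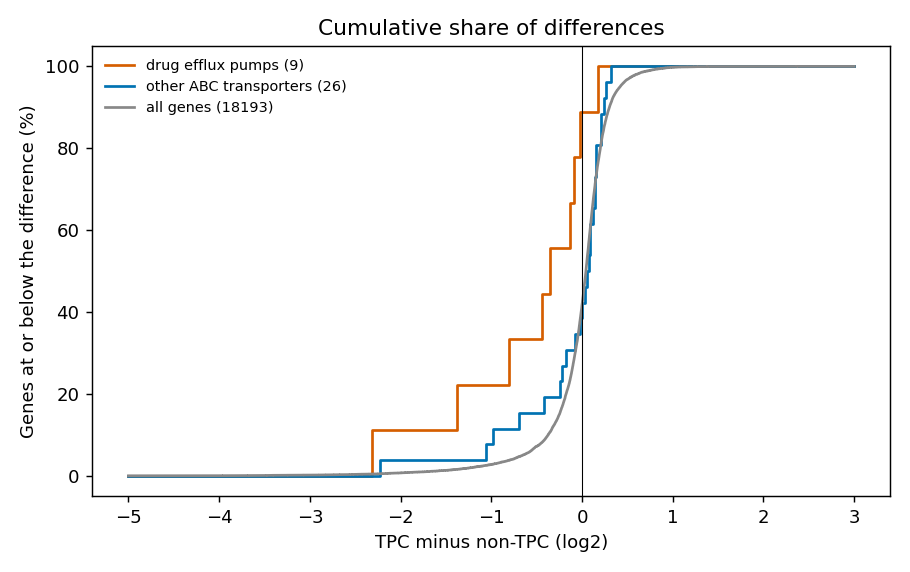
Cumulative share of genes (%) at or below each difference between TPC and non-TPC (log2) for the 9 drug efflux pumps, the other 26 ABC transporters and all 18193 genes. The curve of the pumps lies to the left of the others from -2.32 upward, with a median of -0.35, while the other transporters (0.07) and all genes (0.04) nearly share a centre.

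Abcg2 encodes the breast cancer resistance protein, an efflux pump with a broad range of drugs and porphyrins as substrates, and had the largest difference of the family. Its level was 4.69, 4.68 and 6.07 in TPCs of mice 1127, 920 and 0107, against 7.55, 6.50 and 8.35 in non-TPCs of the same mice. The fractions did not overlap, the TPC values of mice 1127 and 920 lay near the first quartile of the arrays, and mouse 0107 was the highest in both fractions. TPCs averaged 5.15 ± 0.80 and non-TPCs 7.46 ± 0.93 (SD, n = 3 each). The limma difference was -2.32 (SE 0.56, 95% interval -3.66 to -0.98, adjusted p = 0.436). On the linear scale it is a 4.99-fold difference, which rests in part on the dim TPC values of mice 1127 and 920. The within-mouse differences were -2.85, -1.82 and -2.28, so the mice differed less from each other in the difference than in the level. A replicate block for the mouse lowered the SE to 0.22 and the limma adjusted p to 0.0709, still above the threshold. Over the 15 alternatives that tested it, the limma adjusted p of Abcg2 ranged from 0.0709 to 1, and the difference from -2.80 to -1.88.

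Abcb1a and Abcb1b are the rodent genes for P-glycoprotein, the pump that in humans is encoded by ABCB1 alone. Abcb1b was at 3.91, 4.01 and 4.43 in TPCs of mice 1127, 920 and 0107, against 5.33, 4.72 and 6.44 in non-TPCs. Its limma difference was -1.38 (SE 0.42, adjusted p = 0.602, and 0.217 with the mouse as a replicate block). Every TPC array was below the first quartile of the arrays and near the level of the flat second probe set of this gene, so no fold is given. Abcb1a was at 4.0, 4.18 and 4.37 in TPCs, against 4.57, 4.65 and 5.76 in non-TPCs, a difference of -0.81 (SE 0.33, limma adjusted p = 0.751, or 0.351 under the block). Both genes had their highest value in the non-TPCs of mouse 0107, and without that array the differences were -0.91 for Abcb1b and -0.43 for Abcb1a.

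The probe sets of these genes did not all show the difference. A dimmer Abcb1a probe set was at 3.28, 3.46 and 3.42 in TPCs and 3.80, 3.69 and 6.00 in non-TPCs, so its difference of -1.11 came mostly from mouse 0107. A second Abcb1b probe set lay between 3.83 and 4.25 on all 6 arrays and differed by 0.03. Abcg2 had a single probe set. The P-glycoprotein genes are close paralogs, and how far the probes of each detect the other was not tested.

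Abcb1a, Abcb1b and Abcb4 lie next to each other on mouse chromosome 5. Abcb4, a flippase that brings phosphatidylcholine into bile, was the neighbour without that difference. Its level was 7.29, 7.36 and 7.77 in TPCs, against 7.10, 6.94 and 7.92 in non-TPCs, with a difference of 0.15 (SE 0.29, limma adjusted p = 0.945). The fractions overlapped, and mouse 0107 differed in sign from the other mice.

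The start regions of the pumps that were lower in TPCs of all mice without overlap are shown because these genes had the clearest separation of the fractions among the pumps. They come from RefSeq on GRCm38.p6, each running from 250 bases before to 50 after a listed start, and capitals mark on either strand the GC box GGGCGG, the box spelled CCAAT, the TATA box letters TATAAA, the core of the aryl hydrocarbon receptor site GCGTG and the core of the antioxidant response element TGACNNNGC, and none of the matches overlaps another. Abcg2 has 3 listed starts, at chr6:58584283-58584582, chr6:58596422-58596721 and chr6:58640296-58640595, all on the plus strand. Abcb1a lies at chr5:8566841-8567140 and Abcb1b at chr5:8797897-8798196, also on the plus strand.
Abcg2, first start: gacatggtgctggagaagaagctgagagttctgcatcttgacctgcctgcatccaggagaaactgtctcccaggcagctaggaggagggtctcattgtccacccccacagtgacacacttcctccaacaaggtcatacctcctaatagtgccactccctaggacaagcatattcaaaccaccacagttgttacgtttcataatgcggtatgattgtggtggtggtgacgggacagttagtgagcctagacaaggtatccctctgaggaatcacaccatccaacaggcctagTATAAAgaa
Abcg2, next start: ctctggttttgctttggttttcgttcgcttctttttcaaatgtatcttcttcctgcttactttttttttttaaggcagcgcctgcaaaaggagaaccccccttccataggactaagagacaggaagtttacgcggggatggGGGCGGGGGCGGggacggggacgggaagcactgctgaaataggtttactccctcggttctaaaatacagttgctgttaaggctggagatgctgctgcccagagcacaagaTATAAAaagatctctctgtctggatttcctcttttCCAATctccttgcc
Abcg2, last start: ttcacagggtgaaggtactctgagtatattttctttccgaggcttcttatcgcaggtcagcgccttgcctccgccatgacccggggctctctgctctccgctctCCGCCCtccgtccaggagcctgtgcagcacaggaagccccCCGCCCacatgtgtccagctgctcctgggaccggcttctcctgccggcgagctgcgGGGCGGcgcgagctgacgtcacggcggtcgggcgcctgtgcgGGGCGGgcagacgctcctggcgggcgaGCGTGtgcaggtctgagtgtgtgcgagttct
Abcb1a: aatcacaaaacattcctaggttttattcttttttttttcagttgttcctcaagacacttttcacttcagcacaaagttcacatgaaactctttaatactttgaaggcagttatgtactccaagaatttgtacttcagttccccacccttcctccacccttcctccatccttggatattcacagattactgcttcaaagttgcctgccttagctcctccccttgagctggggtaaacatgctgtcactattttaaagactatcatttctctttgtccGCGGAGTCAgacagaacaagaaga
Abcb1b: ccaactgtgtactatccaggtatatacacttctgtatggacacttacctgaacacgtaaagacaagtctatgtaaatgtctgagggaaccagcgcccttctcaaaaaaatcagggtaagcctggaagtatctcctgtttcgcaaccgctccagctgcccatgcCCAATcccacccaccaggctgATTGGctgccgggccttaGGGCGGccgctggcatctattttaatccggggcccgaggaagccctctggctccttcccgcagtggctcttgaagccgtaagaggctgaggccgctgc

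The windows had little in common. The last Abcg2 start held 4 GC boxes and 1 aryl hydrocarbon receptor core, the next 2 GC boxes, 1 CCAAT box and 1 TATA box, and the first only 1 TATA box. The TATA and CCAAT letters of the next and first Abcg2 windows lie after the listed start, in the last 50 bases. So do the aryl hydrocarbon receptor core of the last Abcg2 window and the antioxidant response core of the Abcb1a window. Abcb1b held 1 GC box and 2 CCAAT boxes, whereas Abcb1a held only an antioxidant response core, on the minus strand. Their GC contents were 50%, 48% and 67% for Abcg2, 40.3% for Abcb1a and 55% for Abcb1b, against a median of 52.7% for all promoters. Over 32 windows of the 26 members listed, 50% held a GC box, 28.1% a CCAAT box, 21.9% a TATA box, 28.1% an aryl hydrocarbon receptor core and 21.9% an antioxidant response core. Of 32851 windows of all genes, these shares were 35.7%, 37.4%, 13.6%, 32.4% and 12.4%. A match of letters is a description and not a binding site, and the arrays do not show which start was used.

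**Figure D3:**
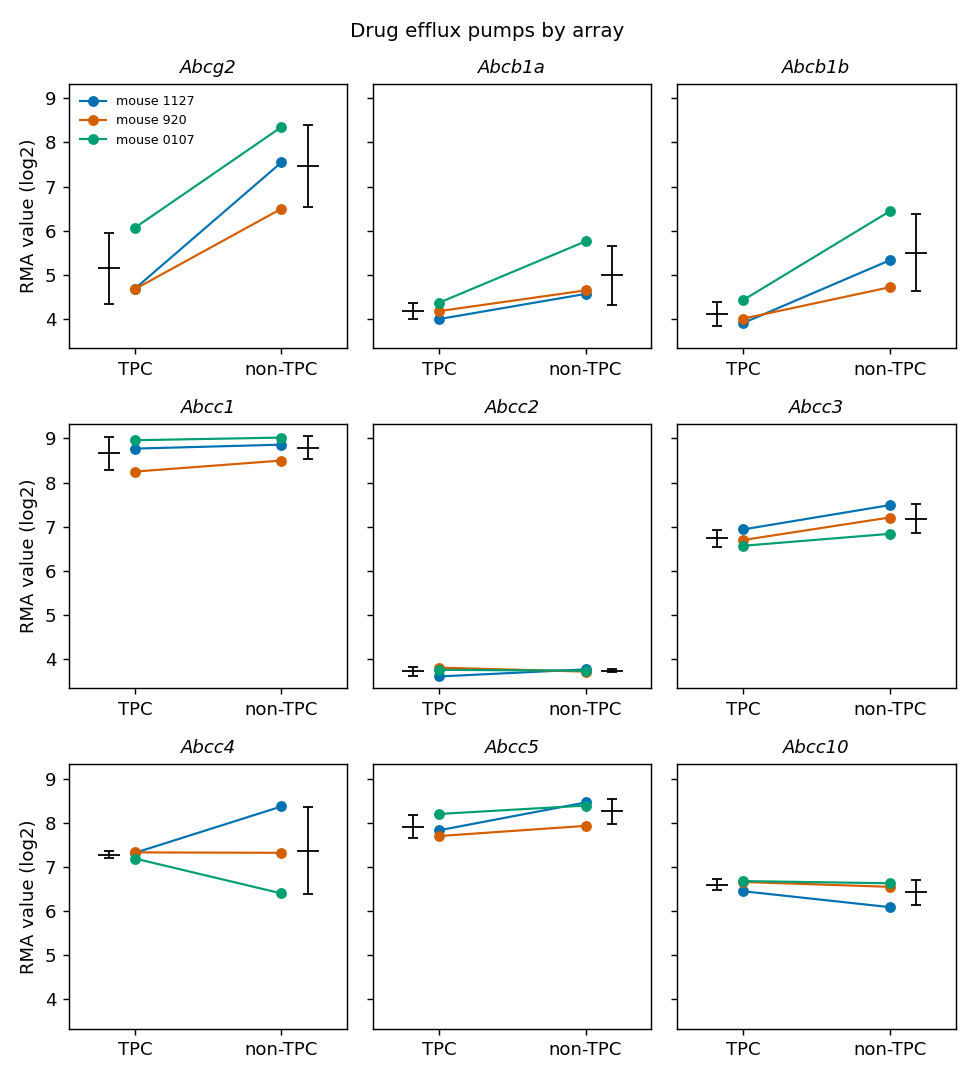
RMA values (log2) of the 9 drug efflux pumps in each array, TPC on the left and non-TPC on the right of each panel, with a line for each mouse and the mean with SD (n = 3) beside the points. Lines of all 3 mice run upward to non-TPC for Abcg2, Abcb1a and Abcb1b, and less so for Abcc3 and Abcc5. Those of Abcc1, Abcc2 and Abcc10 are nearly level and those of Abcc4 spread apart.

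The multidrug resistance proteins of subfamily C, which export drugs joined to glutathione, glucuronate or sulphate, showed smaller differences. Abcc3, which exports glucuronides across the basolateral membrane, was at 6.94, 6.70 and 6.57 in TPCs, against 7.49, 7.21 and 6.84 in non-TPCs. It was lower in TPCs of all 3 mice, with within-mouse differences of -0.54, -0.50 and -0.28. The fractions overlapped, and the difference was -0.44 (SE 0.20, limma adjusted p = 0.807, and 0.393 with the mouse as a replicate block), or -0.29 when non-TPCs of mouse 1127 were left out. Abcc1, the founding member of the group and a pump of glutathione conjugates, was well above the median level on every array, at 8.77, 8.25 and 8.96 in TPCs against 8.86, 8.50 and 9.02 in non-TPCs. Its difference was -0.13 (SE 0.23, limma adjusted p = 0.941, 95% interval -0.69 to 0.42), and without the TPC array of mouse 920 it was 0.07. The mice differed more than the fractions in Abcc1, with mouse 920 lowest in both.

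Abcc5, a pump of cyclic nucleotides and nucleotide analogs, was at 7.83, 7.70 and 8.20 in TPCs and 8.46, 7.93 and 8.39 in non-TPCs. Its difference was -0.35 (SE 0.21, limma adjusted p = 0.873), lower in TPCs of all 3 mice with overlap between the fractions. It was measured by 10 probe sets, of which the next 3 in brightness differed by -0.06, -0.10 and -0.02, and the mean over all 10 differed by -0.06. The value of Abcc5 therefore rests on its brightest probe set.

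Abcc4, which exports cyclic nucleotides and prostaglandins, went opposite ways in different mice. It was at 7.32, 7.33 and 7.19 in TPCs, against 8.37, 7.32 and 6.40 in non-TPCs of mice 1127, 920 and 0107. The TPC values were nearly equal, while the non-TPC values spanned both sides of them, which gave within-mouse differences of -1.05, 0.00 and 0.78 and a mean of -0.09 (SE 0.46, limma adjusted p = 0.979). Leaving out non-TPCs of mouse 1127 gave a difference of 0.41, and leaving out those of mouse 0107 gave -0.57.

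Abcc10, a pump that in cell culture carries taxanes, was at 6.45, 6.66 and 6.68 in TPCs, against 6.09, 6.55 and 6.63 in non-TPCs. It was the only one of the 9 pumps with every mouse higher in TPCs, the within-mouse differences being 0.37, 0.11 and 0.05 (mean 0.18, SE 0.18, limma adjusted p = 0.912). When non-TPCs of mouse 1127 were left out, the difference was 0.01. Abcc2, the conjugate pump of the bile canaliculus, lay below the first quartile on every array, at 3.61, 3.81 and 3.76 in TPCs and 3.77, 3.72 and 3.74 in non-TPCs. Its difference of -0.02 (SE 0.12, limma adjusted p = 0.984) is between values that cannot be told from background.

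Of the other 26 members, those set out next with values in every array are the 6 with the largest differences or smallest unadjusted p, and further ones whose values were picked after they were seen. Among the transporters of cholesterol and phospholipid, 0 of 8 passed the test and the median difference was 0.07. Abca1, which loads cholesterol onto lipid-poor apolipoprotein A-I, had the largest difference of these. It was at 7.23, 8.31 and 8.37 in TPCs, against 8.39, 9.05 and 8.53 in non-TPCs, a difference of -0.69 (SE 0.35, limma adjusted p = 0.829, or 0.412 under the block). Without the TPC array of mouse 1127 it was -0.32, and over the mean of all 3 probe sets -0.27. The within-mouse differences were -1.16, -0.75 and -0.16, and the highest TPC array stood only just under the lowest non-TPC array. The dimmer Abca1 probe sets, at means of 4.52 and 3.64, differed by -0.10 and -0.02.

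Abcg1, which passes cholesterol to high-density lipoprotein, had within-mouse differences of 0.12, 0.00 and 0.85. Only the non-TPC value of mouse 0107, 9.15, stood apart from the others, and the difference was 0.32 (SE 0.27, limma adjusted p = 0.899). Abca7, known for a part in phagocytosis and phospholipid transport, differed by -0.15, -0.77 and 0.40 in mice 1127, 920 and 0107, and Abca5, a lysosomal lipid transporter, by -0.91, 0.05 and 0.96. Neither gene kept a direction across mice. The sterol pair Abcg5 and Abcg8, whose proteins work as a dimer and whose genes start head to head with 209 bases shared between their 300-base windows, differed by 0.09 and 0.21. Abcg8 was at 6.28, 6.29 and 6.27 in TPCs and 5.81, 6.19 and 6.20 in non-TPCs, without overlap (SE 0.15, limma adjusted p = 0.886), while Abcg5 lay below the first quartile of all genes, with a mean of 4.09. Abcg4, a sterol transporter of neural cells, differed by 0.21 and Abca2, a lysosomal lipid transporter of the nervous system, by 0.06.

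Abca8a and Abca9, neighbouring genes of a cluster on chromosome 11 whose products are thought to act in lipid transport, were high in 1 array alone. Abca8a was at 4.49, 4.16 and 4.34 in TPCs of mice 1127, 920 and 0107, against 9.80, 5.02 and 4.86 in non-TPCs. Its difference of -2.23 had an SE of 1.26 (limma adjusted p = 0.872), and it was -0.61 when non-TPCs of mouse 1127 were left out. Abca9 was at 4.66, 4.50 and 4.68 in TPCs, against 7.29, 5.10 and 4.64 in non-TPCs, a difference of -1.06 (SE 0.65, limma adjusted p = 0.876) that was -0.25 without the same array. Its second probe set, at a mean of 4.26, differed by -0.08. The fractions did not overlap for Abca8a and overlapped for Abca9.

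Abca8b, which lies next to Abca8a, did not follow its neighbours. It was at 4.91, 4.89 and 5.10 in TPCs, against 4.76, 4.69 and 4.68 in non-TPCs, without overlap and with each mouse higher in TPCs (difference 0.26, SE 0.13, limma adjusted p = 0.823). These levels are below the first quartile of all genes. Abca4 and Abca13, counted with them under subfamily A apart from the lipid transporters above, were no brighter than the first quartile of all genes: Abca4, the retinal flippase, had a mean of 5.21 and differed by -0.08, and Abca13 had a mean of 3.42 and differed by 0.08.

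In the peroxisomal subfamily, Abcd2, a carrier of very long-chain fatty acids, was at 4.98, 4.88 and 4.94 in TPCs, against 6.90, 5.43 and 5.40 in non-TPCs. The TPC arrays were nearly equal and every non-TPC array was above them, most of all that of mouse 1127. The difference was -0.98 (SE 0.40, limma adjusted p = 0.762, or 0.42 under the block), and -0.48 without that array. Its 3 dimmer probe sets, at means of 3.54 to 3.67, differed by -0.15 to -0.27. Those at means of 3.63 and 3.54 were higher in TPCs of mouse 1127, by 0.15 and 0.11. Their lowest differences were in mouse 0107, at -0.95 and -0.67. Abcd3, which carries branched-chain fatty acids and bile acid precursors, was high on every array, at 10.09, 10.36 and 10.31 in TPCs and 10.36, 10.48 and 10.57 in non-TPCs. It was lower in TPCs of all 3 mice (difference -0.22, SE 0.14, limma adjusted p = 0.877), and the fractions met at 10.36 without overlapping. A dimmer Abcd3 probe set, at a mean of 5.16, differed by 0.72, -0.29 and 0.09 in mice 1127, 920 and 0107.

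Abcc8 and Abcc9 encode the sulphonylurea receptors, which gate ATP-sensitive potassium channels. Abcc9, known from vascular smooth muscle and pericytes, was at 5.04, 4.99 and 4.88 in TPCs, against 5.84, 5.05 and 5.28 in non-TPCs, a difference of -0.42 (SE 0.22, limma adjusted p = 0.843). A second, slightly dimmer probe set of Abcc9 was at 4.31, 4.07 and 4.72 in TPCs and 8.06, 4.32 and 4.96 in non-TPCs, and differed by -1.42. The non-TPC array of mouse 1127 was again the high one, and leaving it out gave a difference of -0.20 for the brightest probe set, whose fractions did not overlap. Abcc8, known from neuroendocrine and pancreatic beta cells, had within-mouse differences of -0.11, -0.34 and -0.26 (mean difference -0.24, SE 0.14, limma adjusted p = 0.873). A dimmer Abcc8 probe set, at a mean of 4.08, went the other way, by 0.07, 0.07 and 0.08. Abcc6, whose loss in humans leads to calcified connective tissue, was dim and differed by -0.02.

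**Figure D4:**
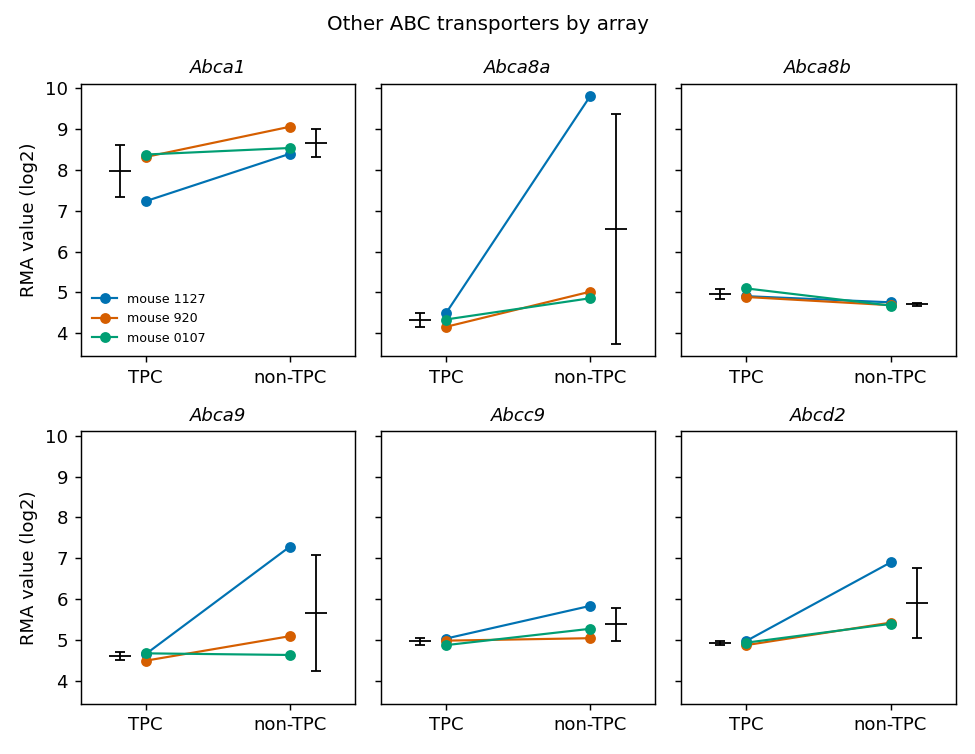
RMA values (log2) of the 6 other ABC transporters that had a difference of 1 or more in size or 1 of the 5 smallest unadjusted p, in each array, TPC on the left and non-TPC on the right of each panel, with a line for each mouse and the mean with SD (n = 3) beside the points. The non-TPC array of mouse 1127 stands alone at 9.80 for Abca8a, 7.29 for Abca9 and 6.90 for Abcd2.

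The transporters of mitochondria and lysosomes differed by 0.00 to 0.24, and 0 of 5 passed the test. Abcb6, a porphyrin transporter, was 0.16, 0.19 and 0.36 higher in TPCs of the 3 mice (mean 0.24, SE 0.18, limma adjusted p = 0.895), and Abcb8, a mitochondrial transporter, and Abcb9, a lysosomal peptide transporter, differed by 0.09 and 0.12. Abcb10, which acts in haem synthesis in mitochondria, varied more between mice than between fractions: it was at 7.53, 6.91 and 5.99 in TPCs and 6.88, 7.25 and 5.88 in non-TPCs of mice 1127, 920 and 0107. Abcd4, which takes part in lysosomal cobalamin export, had a difference of 0.00 (SE 0.17). Abcb11, the bile salt export pump, differed by 0.14, and Abcg3, a rodent relative of Abcg2, by 0.15 at a mean of 4.70. In all, the 20 members that are neither pumps nor in the plot of the 6 other transporters had differences between -0.24 and 0.32 and limma adjusted p of 0.873 or more.

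Cells of blood vessels, stroma and blood can carry some of these transporters, and the summed marker signal of those cells was lower in TPCs of each mouse. In bulk samples, fewer cells of a type and less RNA per cell cannot be told apart. Endothelial markers (8 of 8 measured, 3 lower in TPCs of all mice, 0 past the test) had a summed signal of 8.58, 8.55 and 8.52 in TPCs of mice 1127, 920 and 0107, against 9.38, 8.71 and 10.36 in non-TPCs. Among non-TPC arrays Abcg2, Abcb1b and the endothelial sum had the same order, with mouse 0107 highest and mouse 920 lowest. Abcb1a was also highest in mouse 0107. Its values in mice 1127 and 920 were close, at 4.57 and 4.65 in the brightest probe set. In the dimmer probe set they were 3.80 and 3.69, the opposite order. In mouse 920 the endothelial sum differed by -0.16 and 4 of 8 endothelial markers were lower in TPCs, while Abcg2 differed by -1.82 and Abcb1b by -0.71. Among TPC arrays the endothelial sums were nearly equal (8.52 to 8.58), so no order of the mice is read from them. The part of endothelial cells in the pump values was not tested.

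The non-TPC array of mouse 1127, which carried the high values of Abca8a, Abca9, Abcd2 and Abcc9, was also the highest in fibroblast and in pericyte and smooth muscle markers. Fibroblast markers (8 of 8 measured, 6 lower in TPCs of all mice) summed to 11.68, 10.59 and 11.11 in TPCs and to 14.49, 12.63 and 11.80 in non-TPCs of mice 1127, 920 and 0107. Most of each sum was Dcn, at 11.58, 10.36 and 10.94 in TPCs and 13.82, 12.38 and 11.51 in non-TPCs. Pericyte and smooth muscle markers (8 of 8 measured, 3 lower in TPCs of all mice) summed to 8.95, 8.85 and 8.81 in TPCs and to 11.24, 9.30 and 9.05 in non-TPCs. Their part in the values of these 4 transporters was not tested.

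**Figure D5:**
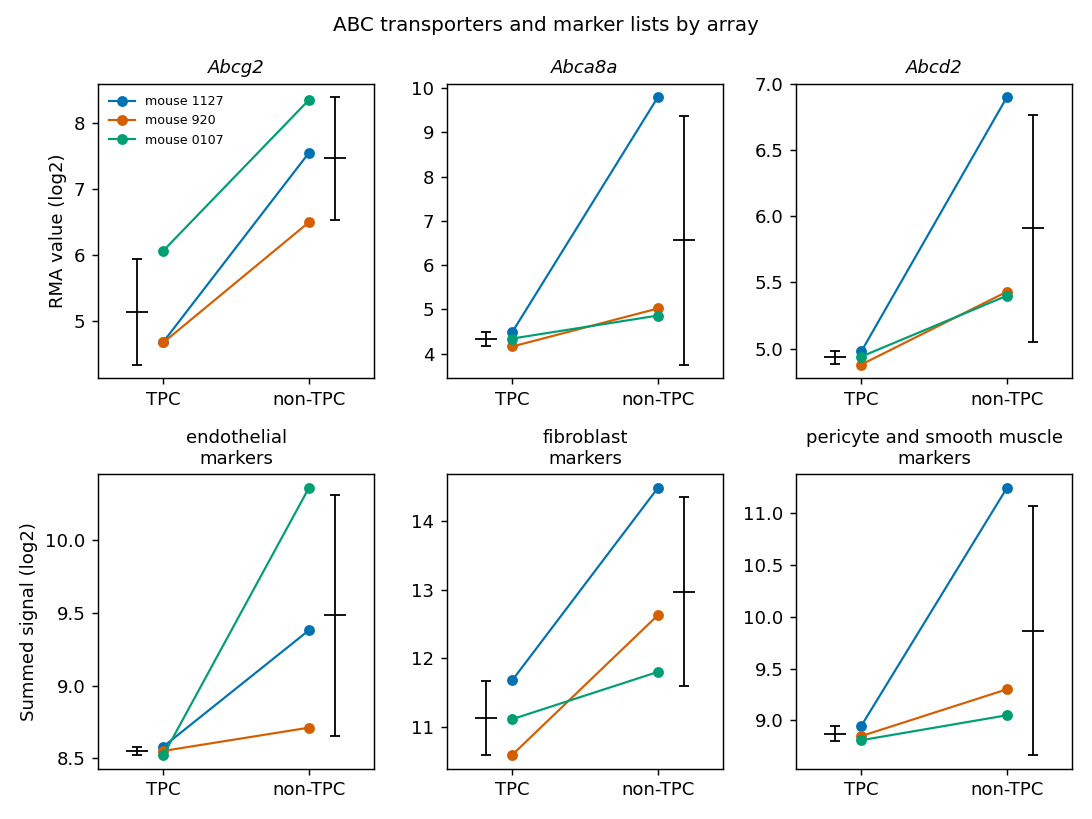
RMA values (log2) of Abcg2, Abca8a and Abcd2 in the upper panels and the log2 summed signal of endothelial, fibroblast, and pericyte and smooth muscle markers in the lower panels, TPC on the left and non-TPC on the right, with a line for each mouse and the mean with SD (n = 3). Mouse 0107 is highest among non-TPCs for Abcg2 (8.35) and endothelial markers (10.36), and mouse 1127 for Abca8a (9.80), Abcd2 (6.90), fibroblast (14.49) and pericyte markers (11.24).

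Markers of other cell types were also lower in the TPC fraction as summed signal in each mouse. The summed signal of macrophage and monocyte markers was 10.75 to 12.09 in TPCs and 11.92 to 13.35 in non-TPCs (8 of 8 measured, 6 lower in TPCs of all mice), and that of neutrophil markers was 8.18 to 9.0 in TPCs and 10.81 to 11.28 in non-TPCs (5 of 6 measured, 4 lower in all mice, 1 of them past the test). Sums for alveolar type 2 markers were 10.88 to 11.09 in TPCs and 12.65 to 13.38 in non-TPCs (6 of 7, 5 lower in all mice, 2 of them past the test), for alveolar type 1 markers 9.73 to 10.08 in TPCs and 11.22 to 12.17 in non-TPCs (6 of 6, 5 lower), and for club cell markers 13.22 to 14.25 in TPCs and 13.59 to 15.43 in non-TPCs (4 of 4, 4 lower). On the RMA scale no marker can be at 0, and a summed signal is led by the brightest markers of its list. Most of the macrophage and monocyte sum was Lyz2, at 10.14 to 11.79 in TPCs and 11.39 to 12.96 in non-TPCs. Whether any of these cells carried the transporter signal was not tested.

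Genes that work with the transporters were followed as lists, and 0 members of any of the 6 lists passed the test in either direction. The ABC proteins outside the 35, among them translation factors and peptide transporters, had 6 of 8 measured, a median difference of -0.01 and no gene with the same sign in all mice, the smallest unadjusted p belonging to Tap1, an importer of peptides for MHC class I (difference 0.29), and Abcf1, a translation factor (0.15). Of 12 receptors and sensors that control pump genes, 11 were measured, with a median of -0.03. Ahr, the aryl hydrocarbon receptor, which induces Abcg2 in human cells, had within-mouse differences of -0.85, -1.43 and -1.24. Its mean difference was -1.17 (limma adjusted p = 0.765, and 0.119 with the mouse as a replicate block). Nr1h4, the bile acid receptor, differed by -0.34 at a dim level.

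Of 8 sterol efflux partners, all measured, the median was 0.08, and the largest difference was that of Apoe, an apolipoprotein that takes up exported cholesterol (-1.79, limma adjusted p = 0.275), followed by Pltp, a phospholipid transfer protein (-0.87, 0.685). Both were lower in TPCs of all 3 mice, with limma adjusted p of 0.234 and 0.439 under the block. Glutathione and conjugation enzymes, which make the substrates of the subfamily C pumps, had a median of -0.26. Of 11 members, 6 were lower in TPCs of all mice (54.5%, against 13.8% of all genes) and 1 higher (9.09%, against 19.7%). Gstm1 was at -1.08 (limma adjusted p = 0.214, or 0.179 under the block) and Gsto1 at -1.15 (0.454, or 0.215). The largest differences of the list were those of Mgst1, -1.97 (limma adjusted p = 0.567, or 0.0636 under the block), and Gsta4, -1.60 (0.706, or 0.215). For peroxisomal fatty acid oxidation 7 of 8 genes were measured, with a median of -0.01. Cat, the peroxide-splitting catalase, was at -1.11 (limma adjusted p = 0.41, or 0.0975 under the block) and Pex19 at 0.20. The channel partners of the sulphonylurea receptors parted: Kcnj8, the vascular partner of Abcc9, differed by -0.75 and was lower in all mice, whereas Kcnj11, the partner of Abcc8, differed by 0.23 and was higher in all mice (limma adjusted p = 0.675 and 0.886). Under the block the limma adjusted p were 0.309 for Kcnj8 and 0.675 for Kcnj11.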

How the data were processed

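Expression was measured on 6 Affymetrix arrays, 1 for the TPC and 1 for the non-TPC sample of each of 3 mice. The authors deposited log2 values for each probe set, made by RMA (per the submitters' processing notes). The log2 scale was read from the values, since the sources used here give no log base, RMA version or probe set definition. The labels name a whole-transcript labelling kit, while the probe set annotation belongs to a 3′ expression array, and this difference was not resolved. Of 45101 probe sets, 34945 had a single gene symbol and entered, while 932 had several, 9160 had none listed and 64 were controls. The probe set with the highest mean stood for each of 18193 genes. Differences were tested with lmFit and eBayes in limma 3.58.1 (R 4.3.3) over all genes, with Benjamini-Hochberg adjustment at 0.05 and no detection filter, and the code was tested on simulated data. A number marks 1 animal, so that the samples are paired by it. Deviations from the fraction means correlated at 0.30, 0.46 and 0.36 within mice 1127, 920 and 0107 and at -0.08 or less between mice. Centring on those means makes the between-mouse values negative on average when the within-mouse values are positive, so they add no separate support. Alternatives were the mouse as a fixed or random block, other probe set rules, a filter on level, centred arrays, another eBayes prior, leaving out mice or arrays, and other definitions of the pumps. The precision is limited by the number of arrays. Full values were given for the 9 pumps, for other members with a difference of at least 1 in size, and for the 5 others of smallest unadjusted p. Of each pathway list, the 2 genes of smallest unadjusted p were named, and Mgst1 and Gsta4 were added for the size of their differences after these were seen. The members, roles and lists were chosen with earlier results of these data known. Promoter windows are those of RefSeq on GRCm38.p6, matched by symbol for 26 of the 35 members.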

Additional observations from a re-analysis of the deposited data

How the results depend on the processing

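No member passed an adjusted p of 0.05 in limma under any of 16 alternatives, and 0 to 6 members were lower at an unadjusted p under 0.05. The smallest adjusted p of a member was that of Abcg2 with the mouse as a replicate block, 0.0709, with 0.154 when the mouse was a random block, and neither block changed a call of a member at the adjusted threshold, while both raised the members lower at an unadjusted p under 0.05 to 6 from 4 by adding Abca1 and Abcc3. Calls over all genes numbered 11, against 13 with the replicate block, 39 with the random block, 4 with the mean of all probe sets, 16 with centred arrays, 12 among genes above the median level and 0 to 84 when a mouse or array was left out (84 when it was non-TPCs of mouse 0107). The median difference of the members, -0.02, was -0.09 among genes above the median level, 0.04 with centred arrays (which put the median of all genes at 0.10) and between -0.11 and 0.00 when a mouse or array was left out, and that of the non-pump members was then between -0.04 and 0.09. The pump median, -0.35, was -0.10 with the mean of all probe sets, -1.38 for the narrowed and -0.09 for the widened definition, and between -0.52 and -0.21 with a mouse or array left out. The number of members with the same direction in every mouse, 18, was 6 among genes above the median level and 21 to 26 without a mouse, since fewer genes or mice then entered. Abcc2 was at 0.04 with centred arrays and between -0.07 and 0.05 with a mouse or array left out, Abcc1 then between -0.28 and 0.07, and Abcc4 between -0.57 and 0.41. Leaving out the non-TPC array of mouse 1127 moved Abca8a, Abca9, Abcd2, Abcc9, Abcc3, Abcc4 and Abcc10 by over 1.5 times, leaving out that of mouse 0107 did so for Abcb1b, Abcb1a, Abcc4 and Abcc10 (to 0.28), and leaving out the TPC array of mouse 1127 for Abca1, with the other values given above. The mean of all probe sets also moved Abcb1b (-0.68), Abcc5 (-0.06), Abca1 (-0.27), Abca9 (-0.57), Abcd2 (-0.41) and Abcc9 (-0.65) by over 1.5 times. The cause was not tested. No detection calls were given, so signal near background limits Abcc2, Abcc6, Abcg5, Abca13 and the dim TPC values of the P-glycoprotein genes and Abca8a. Other members below the first quartile of all genes, among them Abca9, Abca8b and Abcg3, may be limited too.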
